A study of Mus musculus with 8 samples.

Results

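Endothelin-1 and 9 other secreted growth factors or their processing enzyme were examined in J774A.1 macrophages stimulated with LPS in the absence or presence of UDCA. The 10 genes, of 55487 in the deposited table, were taken by symbol: Edn1, Ece1, Hbegf, Areg, Ereg, Pdgfa, Pdgfb, Thbs1, Inhba and Igf1. They were chosen by earlier results of the same comparison, so their differences between the groups are described here and carry no test. J774A.1 is a mouse macrophage line grown as a single cell type, LPS is the endotoxin of Gram-negative bacteria, which macrophages sense through TLR4, and UDCA (ursodeoxycholic acid) is a bile acid. All cells received LPS (1 μg/mL) for 24 h. The LPS group (n = 4) received no UDCA, and in the LPS + UDCA group (n = 4) UDCA (1 mM) was present as well. Whether the LPS group received the solvent of UDCA is not given in the sources used here. No library of cells without LPS, or with UDCA alone, was analysed here, so every value is a level under LPS. The labels do not say whether the 4 libraries of a group came from separate cultures, and the spread between them may be technical.

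Macrophages secrete peptides that act on neighbouring cells. Endothelin-1, made as a long precursor that furin and then the converting enzyme ECE1 cleave, constricts vessels. It acts through the receptors EDNRA and EDNRB. HB-EGF, amphiregulin and epiregulin are made as membrane proteins, are released by ADAM proteases and bind ERBB receptors. PDGF chains A and B pair into dimers that drive fibroblasts and smooth muscle cells through PDGFRA and PDGFRB. Activin A, a dimer of the inhibin beta-A chain, belongs to the TGF-β family, IGF-1 is a trophic factor of repair macrophages, and thrombospondin-1 is a matrix protein that binds CD36 and CD47.

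The authors deposited TPM, reads of a gene divided by its length and scaled to 1000000 per library, which allows levels of different genes to be compared. The columns summed to 973190 to 977485 with LPS and to 958918 to 962737 with LPS + UDCA. TPM keeps no read number, so the depth is unknown and the errors are the spread between libraries. Of 10 macrophage markers, 9 were at 1 TPM or more in every library, while Mertk was listed at 0 in all of them. Their summed TPM was 4240 to 4472 with LPS and 2081 to 2338 with LPS + UDCA, and 2 of them (Adgre1 and Fcgr1) rose and 4 (Cd68, Csf1r, Itgam and Lyz2) fell past the thresholds given below. The summed TPM of 6 fibroblast, 5 epithelial and 5 lymphocyte markers stayed at or under 0.49 in every library. That of 6 endothelial markers was 1.76 to 2.18 with LPS and 0.79 to 1.12 with LPS + UDCA, mostly from Vwf and Pecam1. Their part in the levels below was not tested. In such bulk libraries, fewer cells that make a transcript and less of it per cell cannot be told apart.

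Of the 10 genes, Pdgfb was by far the most abundant under LPS and Edn1 the next, and both were much lower with UDCA. The 10 genes summed to 114 to 125 TPM in the LPS libraries and to 33.2 to 39.2 TPM in the LPS + UDCA libraries. Pdgfb gave 78.2 ± 1.42% (SD, n = 4) of that sum with LPS and 84.8 ± 1.48% with LPS + UDCA. The share of Edn1 was 16.5 ± 0.964% and 0.884 ± 0.223%, and that of Pdgfa was 1.93 ± 0.639% and 10.4 ± 2.46%. The 6 genes Ece1, Areg, Ereg, Thbs1, Inhba and Igf1 together reached only 0.88 to 2.07 TPM with LPS and 0.51 to 1.6 TPM with LPS + UDCA.

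**Figure D1:**
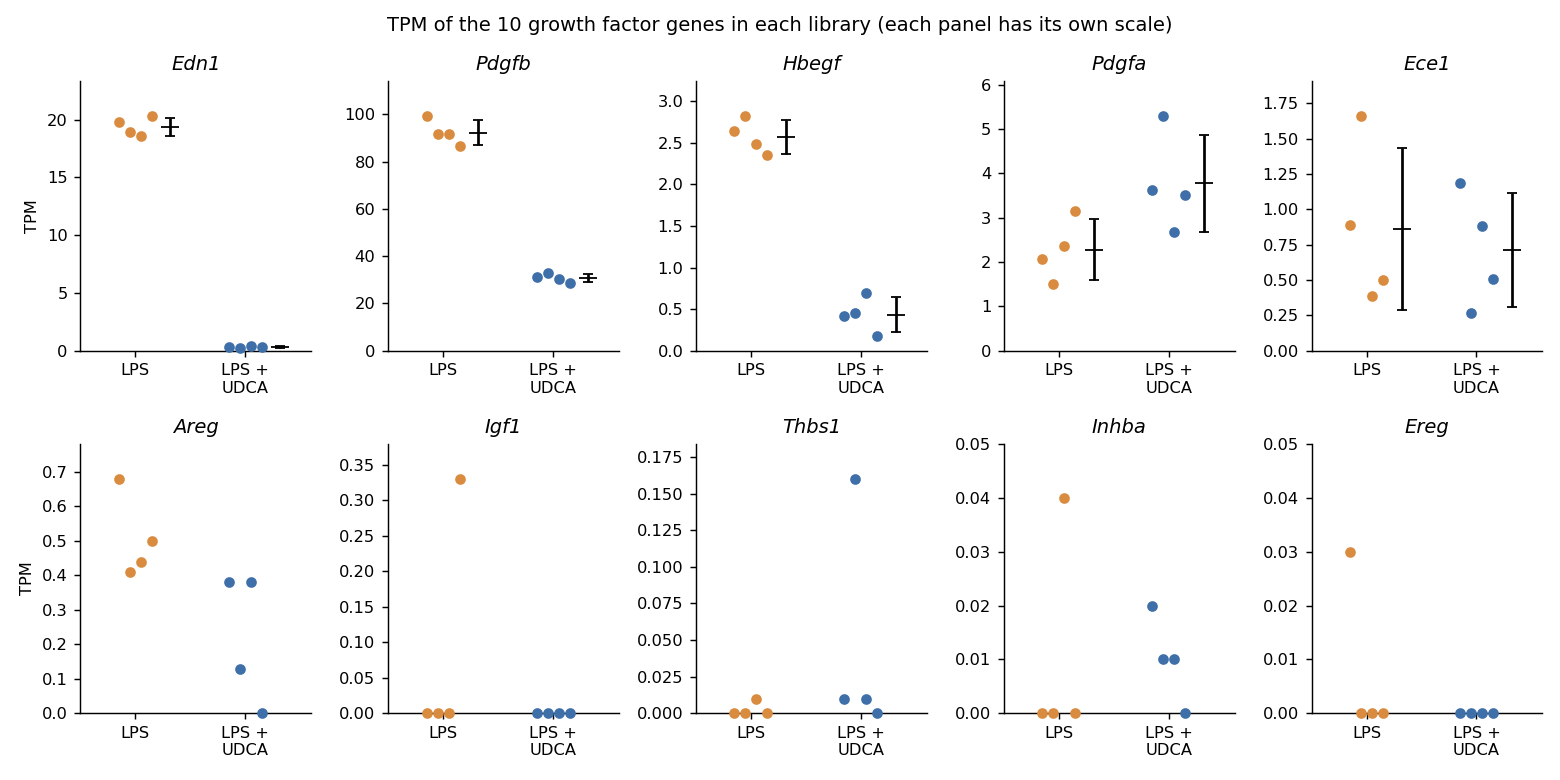
TPM (vertical axes, each panel with its own scale from 0) of the 10 genes in the 4 LPS and 4 LPS + UDCA libraries. Points are libraries, and for the 5 genes above 0 in every library the dash and bar are the mean and SD. Edn1, Pdgfb, Hbegf and Areg do not overlap between the groups, as 66.8% of all genes tested do not, and Areg was not tested. Igf1, Thbs1, Inhba and Ereg are at 0 in 4 to 7 of the 8 libraries.

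The window around the start of Edn1 is shown because Edn1 differed most between the groups of the 10, and that of Pdgfa because it was the tested gene with a higher mean under UDCA. Windows of 6 of the 10 genes were found in the RefSeq table of GRCm38.p6, each with 250 bases before and 50 bases from an annotated start. The Edn1 window is chr13:42301226-42301525 on the plus strand and the Pdgfa window, the more upstream of its 2 windows, is chr5:138994895-138995194 on the minus strand. Capitals mark matches, on either strand, to the letters searched.
Edn1: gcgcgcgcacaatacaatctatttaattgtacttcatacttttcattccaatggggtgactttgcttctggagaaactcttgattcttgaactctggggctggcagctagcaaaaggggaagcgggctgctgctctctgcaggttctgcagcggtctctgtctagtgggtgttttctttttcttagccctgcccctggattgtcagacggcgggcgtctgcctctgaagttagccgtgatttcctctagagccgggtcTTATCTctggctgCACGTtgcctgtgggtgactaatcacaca
Pdgfa: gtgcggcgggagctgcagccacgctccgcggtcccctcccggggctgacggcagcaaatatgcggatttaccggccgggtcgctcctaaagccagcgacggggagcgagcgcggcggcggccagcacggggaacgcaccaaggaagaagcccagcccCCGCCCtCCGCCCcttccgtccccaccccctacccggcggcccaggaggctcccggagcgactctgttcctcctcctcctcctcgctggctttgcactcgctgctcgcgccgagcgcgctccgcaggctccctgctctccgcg
The letters searched were TATAAA for the TATA box, TGANTCA for AP-1, TGACGTCA for the cAMP response element, AGATAA for the GATA factors, ACGTG for the hypoxia response element, GGGCGG for the GC box and GGNNTTTCC for κB. In Edn1 a GATA match began 8 bases and a hypoxia response match 21 bases after the annotated start, and in 32851 windows of this length these letters occurred in 11.2% and 19.6%. Pdgfa held 2 GC boxes, beginning at -93 and -86 relative to the start, and GC boxes occurred in 35.7% of windows. Neither window held the AP-1 letters, present in 7.81% of windows, nor the κB letters, present in 5.82%. The GC content was 51.3% for Edn1 and 73.3% for Pdgfa, and 55.8% and 5.45% of windows had at least as much. These matches describe the letters of a window and do not show that a factor was bound.

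Edn1 encodes the precursor of endothelin-1 and lies on chromosome 13 from 42301476 to 42307990 of GRCm38. It had 19.79, 18.96, 18.58 and 20.3 TPM in LPS replicates 1 to 4 and 0.28, 0.27, 0.42 and 0.3 TPM in LPS + UDCA replicates 1 to 4. Every LPS library thus held many times the level of every LPS + UDCA library, and the LPS libraries differed little among themselves, with a coefficient of variation of 4.02%. The ratio of the mean TPM, LPS over LPS + UDCA, was 61.1. On log2(TPM + 1), on which all fold changes here are given and which understates those of low genes, the fold change was -3.95 (standard error, SE, 0.078). That was the 6th lowest of 11796 genes. With a pseudocount of 0.1 TPM it was -5.56. The gene Gm47118 overlaps Edn1 on the opposite strand and had at most 0.85 TPM in any library, and whether strand was used in counting is not given in the sources used here.

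Ece1 encodes the enzyme that releases active endothelin from its precursor, and it did not separate the groups. It had 0.89, 1.66, 0.39 and 0.5 TPM in the LPS libraries and 1.19, 0.27, 0.88 and 0.51 TPM in the LPS + UDCA libraries. The ranges overlapped almost entirely, and the coefficient of variation was 66.8% and 56.9%. At 0.86 TPM on average Ece1 stood far below Edn1 under LPS, while with UDCA its mean of 0.712 TPM was above the 0.318 TPM of Edn1. The gene Gm13012, on the opposite strand of Ece1, had 1.29 to 2.8 TPM over all libraries.

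Pdgfb encodes the B chain of PDGF and lies on chromosome 15 from 79995874 to 80014977. It had 99.16, 91.74, 91.68 and 86.47 TPM in the LPS libraries and 31.07, 32.65, 30.33 and 28.71 TPM in the LPS + UDCA libraries. The groups were far apart and the libraries within each close together (coefficients of variation 5.66% and 5.33%). The mean level with UDCA was 0.333 of that with LPS, and the log2 fold change was -1.56 (SE 0.055). With LPS, 1362 of 55487 genes had a higher mean TPM than Pdgfb, against 4888 for Edn1. Even in the LPS + UDCA libraries Pdgfb stayed the highest of the 10 genes.

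Pdgfa, on chromosome 5 from 138976014 to 138997370, encodes the A chain and was far less abundant. It had 2.06, 1.51, 2.36 and 3.16 TPM in the LPS libraries and 3.63, 5.29, 2.67 and 3.52 TPM in the LPS + UDCA libraries. The ranges overlapped, since LPS replicate 4 lay above LPS + UDCA replicate 3. The log2 fold change was 0.54 (SE 0.2), under the minimum of 1. Pdgfa shares its locus with 6330403L08Rik on the opposite strand, which went from 0.26 to 0.4 TPM with LPS to 3.01 to 3.51 TPM with LPS + UDCA. Of the words of 31 bases in Pdgfa transcripts, 23.3% also occur, on either strand, in another gene, so its level is uncertain where the strand was not used. The part of 6330403L08Rik in the level of Pdgfa was not tested. The balance of the chains differed between the groups in each library. Pdgfb stood at 48.1, 60.8, 38.8 and 27.4 times the TPM of Pdgfa in the LPS libraries and at 8.56, 6.17, 11.4 and 8.16 times in the LPS + UDCA libraries.

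Among the EGF-family ligands, Hbegf was the most abundant under LPS. It encodes heparin-binding EGF-like growth factor, which is also the receptor for diphtheria toxin in susceptible species, and lies on chromosome 18 from 36504927 to 36515805. It had 2.64, 2.82, 2.48 and 2.35 TPM in the LPS libraries and 0.42, 0.45, 0.69 and 0.18 TPM in the LPS + UDCA libraries. All LPS + UDCA libraries were lower than all LPS libraries, with a log2 fold change of -1.33 (SE 0.14) and a ratio of means, LPS over LPS + UDCA, of 5.91. The pseudocount weighed on this low gene, and at 0.1 TPM the log2 fold change was -2.41.

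Areg, which encodes amphiregulin, and Ereg, which encodes epiregulin, are neighbours on chromosome 5 with 45952 bases between them. Areg had 0.68, 0.41, 0.44 and 0.5 TPM in the LPS libraries and 0.38, 0.13, 0.38 and 0 TPM in the LPS + UDCA libraries. The groups did not overlap, but by only a few hundredths of a TPM, and the gene lay under the minimum for a test. Ereg had 0.03 TPM in LPS replicate 1, and the other 7 libraries listed it at 0. Hbegf thus stood above Areg in every LPS library, and with UDCA their ranges overlapped.

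Activin A, IGF-1 and thrombospondin-1 transcripts were nearly absent from both groups. Inhba, the inhibin beta-A gene, was listed at 0, 0, 0.04 and 0 TPM with LPS and at 0.02, 0.01, 0.01 and 0 TPM with LPS + UDCA. Thbs1 was listed at 0, 0, 0.01 and 0 TPM with LPS and at 0.01, 0.16, 0.01 and 0 TPM with LPS + UDCA. For Igf1 the table gives 0.33 TPM for LPS replicate 4 and 0 for the other 7 libraries. At these levels, close to the 2 decimals of the table, no difference between the groups was assessed, and a listed 0 does not prove that a gene is silent.

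In descending order of the mean TPM under LPS, the genes were Pdgfb, Edn1, Hbegf, Pdgfa, Ece1, Areg, Igf1, Inhba, Ereg and Thbs1. Hbegf and Pdgfa overlapped, as did Pdgfa and Ece1, Ece1 and Areg, and the last 4 genes among themselves. Under LPS + UDCA the order began with Pdgfb, Pdgfa, Ece1 and Hbegf, and Edn1 came after them. There Edn1 overlapped with Ece1, Hbegf and Areg.

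Limma, which fits a linear model per gene with variances moderated across genes, was run on the 11796 genes that averaged 1 TPM or more. A call required a 2-fold difference and an FDR (Benjamini-Hochberg) under 0.05, which 17.1% of them passed, 8.71% as higher and 8.44% as lower. Of the 10 genes, 4 were tested and 6 fell under the minimum. Edn1, Pdgfb and Hbegf passed both thresholds as lower, and Pdgfa did not. Nothing is read from this count, because the comparison chose the genes and because Edn1 and Hbegf reached the minimum only through their LPS libraries. The groups did not overlap in 66.8% of all genes tested, 29.9% as lower and 37.0% as higher.

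The transcripts shared few features that the choice had not used. The 10 genes lie on 7 chromosomes, and no other pair of them lies as close as Areg and Ereg do. ATTTA, the core of AU-rich elements that shorten the life of many cytokine transcripts, was counted in the 3′ UTR of the transcript with the longest coding sequence. Edn1 held 3 copies in 1114 bases, Pdgfb 3 in 1411 bases and Hbegf 4 in 1459 bases. Pdgfa held 0 in 728 bases and Igf1 0 in 456 bases. Ece1, which did not separate the groups, held 3 in 2326 bases, and Areg held 4 in 256 bases. At least 3 copies were present in 32.7% and at least 4 in 24.8% of 10418 coding genes tested. Inhba, with 21 copies in 4495 bases, Ereg, with 9 in 3504 bases, and Thbs1, with 6 in 2107 bases, held more. At least as many were held by 0.557%, 6.63% and 14.3% of the coding genes.

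Over the 8 libraries, the genes most like Edn1 among 7072 genes with at least 10 TPM on average were Ube2c, Rpa2, Rrm2, Ccl2 and Fabp4. Pearson's r was between 0.9995 and 0.9999 on log2(TPM + 1), and it is given as a description, because all 8 points share the difference between the treatments. Ube2c encodes a ubiquitin-conjugating enzyme of mitosis, and Rpa2 and Rrm2 serve DNA replication and nucleotide supply. Their mean levels went from 120, 69.9 and 129 TPM with LPS to 16.3, 11.0 and 11.2 TPM with LPS + UDCA. Ccl2 encodes a monocyte chemokine and Fabp4 a fatty acid binding protein.

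The receptors of these ligands were then examined, with 91 related genes from lists of the same pathways, which were made with earlier results of these data known. In the LPS and LPS + UDCA libraries alike, transcripts of the receptors for endothelin, PDGF and IGF-1 were at or near 0. Ednrb, Erbb2 and Erbb4 were listed at 0 in all 8 libraries. Ednra was listed at 0.02 TPM in LPS + UDCA replicate 1 and Egfr at 0.01 TPM in LPS + UDCA replicate 2, both at 0 elsewhere. Igf1r reached 0.03 TPM in LPS replicate 2 and Pdgfra 0.04 TPM in LPS replicates 1 and 2, and both were at 0 elsewhere. Pdgfrb was at 0.01 to 0.07 TPM with LPS and 0.02 to 0.09 TPM with LPS + UDCA. Erbb3 was the ERBB receptor gene above 1 TPM, averaging 7.01 ± 0.891 TPM (SD, n = 4) under LPS and 5.60 ± 0.513 TPM when UDCA was added. Its log2 fold change was -0.28 (SE 0.099, limma adjusted p = 0.03), under the fold change minimum, and the groups overlapped.

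**Figure D2:**
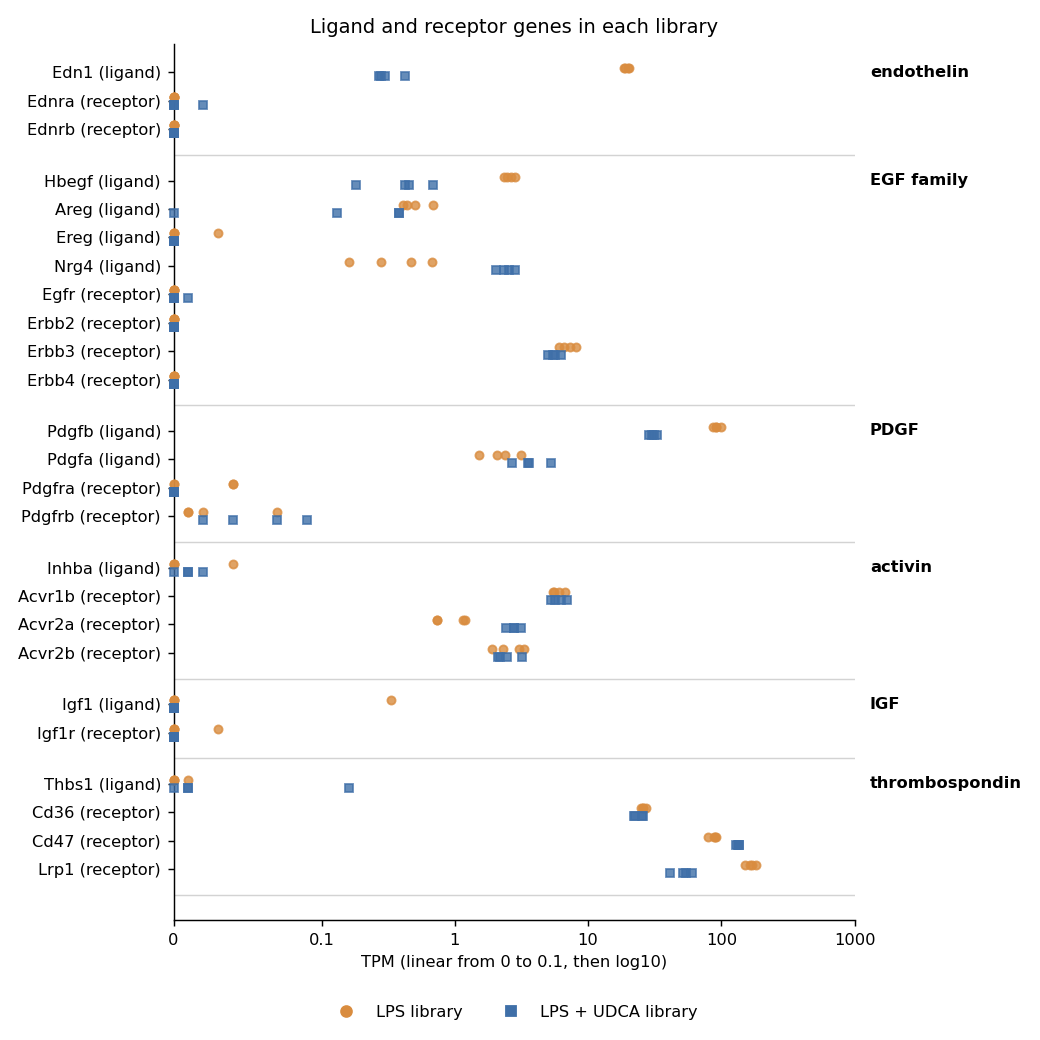
TPM (horizontal axis, linear from 0 to 0.1 and logarithmic above) of ligand and receptor genes in the 4 LPS libraries (circles) and the 4 LPS + UDCA libraries (squares). Edn1 and Pdgfb lie well above 0 with LPS while the genes of their receptors, Ednra, Ednrb, Pdgfra and Pdgfrb, lie under 0.1 TPM, and the receptor genes plotted for activin (Acvr1b, Acvr2a and Acvr2b) and thrombospondin (Cd36, Cd47 and Lrp1) lie above Inhba and Thbs1 in every library.

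Transcripts of several receptors for activin and thrombospondin were present in every library, while Inhba and Thbs1 were at or near 0. The type I receptor gene Acvr1b averaged 5.91 ± 0.552 TPM under LPS and 6.02 ± 0.724 TPM when UDCA was added (log2 fold change 0.02, limma adjusted p = 0.86). Acvr1c, another type I receptor gene, was listed at 0 in all 8 libraries. Of the type II receptors, Acvr2b had 2.62 ± 0.651 and 2.49 ± 0.490 TPM (log2 fold change -0.05, limma adjusted p = 0.80). Acvr2a had 0.955 ± 0.254 and 2.78 ± 0.286 TPM (log2 fold change 0.96), just under the fold change minimum, which it passed without LPS replicate 1, without LPS replicate 4, without LPS + UDCA replicate 3 and with a pseudocount of 0.1 TPM. It was under 1 TPM on average with LPS and reached the minimum for the fit only through its LPS + UDCA libraries, so its difference is given without a test. Among receptors of thrombospondin, Lrp1 fell. It encodes a large endocytic receptor and averaged 167 ± 13.4 TPM under LPS and 52.0 ± 8.15 TPM when UDCA was added (log2 fold change -1.67, SE 0.11, limma adjusted p = 1.1e-06). Cd47, the don't-eat-me signal, had 86.9 ± 5.62 and 134 ± 2.79 TPM, a log2 fold change of 0.62 that did not reach the minimum.

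Furin, Adam17, Adam10 and Rhbdf2, which act in processing or release of the ligands, were abundant in both groups, and none of them passed the fold change minimum. Furin, which makes the first cut in the endothelin precursor and also processes PDGF chains, averaged 41.3 ± 2.36 TPM under LPS and 22.5 ± 1.32 TPM when UDCA was added. Its log2 fold change was -0.85 (SE 0.060, limma adjusted p = 1.6e-06). Every LPS + UDCA library was lower than every LPS library, as in 29.9% of all genes tested. An FDR under 0.05 was found for 72.5% of all genes tested. Adam17, the main sheddase of amphiregulin and HB-EGF, had 47.8 ± 3.81 and 54.9 ± 2.49 TPM (log2 fold change 0.20, limma adjusted p = 0.017). Adam10, a sheddase of other EGF-family members, had 19.4 ± 2.52 and 35.4 ± 2.79 TPM (log2 fold change 0.84, limma adjusted p = 3.3e-05). Rhbdf2, which encodes iRhom2, needed for the maturation of ADAM17 in macrophages, had 66.7 ± 3.35 and 77.1 ± 5.38 TPM (log2 fold change 0.21, limma adjusted p = 0.01).

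Of the 91 related genes, 36 were tested, and 4 rose and 5 fell past both thresholds. That is 25.0% of those tested, against 17.1% of all genes tested. Ecel1, Nrg4 and Acvr2a averaged under 1 TPM with LPS and entered the fit only through their LPS + UDCA libraries, and 2 of the 4 that rose, Ecel1 and Nrg4, are among them. Of the 33 genes at 1 TPM or more on average in both groups, 2 rose and 5 fell. Under median-of-ratios scaling and under quantile normalization, 3 rose and 7 fell. The median log2 fold change of the 36 was -0.07, against 0.082 over all genes tested. Of the 55 genes that were not tested, 21 were listed at 0 in every library. At an FDR under 0.05 without a fold change minimum, 28 of 36 passed (77.8%, against 72.5% of all genes tested), 14 in each direction, where over all genes tested 40.2% were higher and 32.3% lower. Ecel1, Nrg4 and Acvr2a are among the 14 that were higher, so their part in this count followed from how they entered the fit.

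By pathway, each list held few tested genes, so nothing is read from its count of calls. Over all genes tested, 17.1% were called, 8.71% as higher and 8.44% as lower. In the endothelin list 2 of 9 genes were tested, and Ecel1, which encodes a protease related to ECE1 and has no known part in endothelin processing, averaged 0.667 ± 0.312 TPM under LPS and 2.40 ± 0.897 TPM when UDCA was added (log2 fold change 1.01, SE 0.22). It fell under the minimum, at 0.94 and 0.88, with the same 2 scalings, and at 0.88 to 0.94 without LPS replicate 1, LPS replicate 4, LPS + UDCA replicate 1 or LPS + UDCA replicate 3. Of 8 other EGF-family ligands 1 was tested, Nrg4, a ligand of ERBB4, which had 0.395 ± 0.223 and 2.44 ± 0.339 TPM (log2 fold change 1.31, SE 0.15). Both differences are given without a test, because of how these genes entered the fit, and Nrg4 overlaps Fbxo22, at 28.1 to 30.49 TPM, on the opposite strand. In the list of EGF receptors, shedding and feedback, 0 of 7 tested genes passed both thresholds from limma, 6 had an FDR under 0.05 and 6 an unadjusted p under 0.05. Over all genes tested, 72.5% had an FDR under 0.05. Of the 6 PDGF pathway genes, among them Pdgfc, Pdgfd and Nrp1, 0 reached the minimum for a test. In the activin list, 0 of 7 tested genes passed both thresholds from limma, 4 had an FDR under 0.05 and 4 an unadjusted p under 0.05. These counts include Acvr2a, which entered the fit only through its LPS + UDCA libraries. In the thrombospondin list, Lrp1 was the 1 called of 4 tested genes. In the IGF list, 1 of 3 tested genes fell. That gene, Igfbp4, which encodes a binding protein that holds IGFs away from their receptor, averaged 5.53 ± 0.828 TPM under LPS and 1.73 ± 0.417 TPM when UDCA was added (log2 fold change -1.26, limma adjusted p = 3.2e-05).

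**Figure D3:**
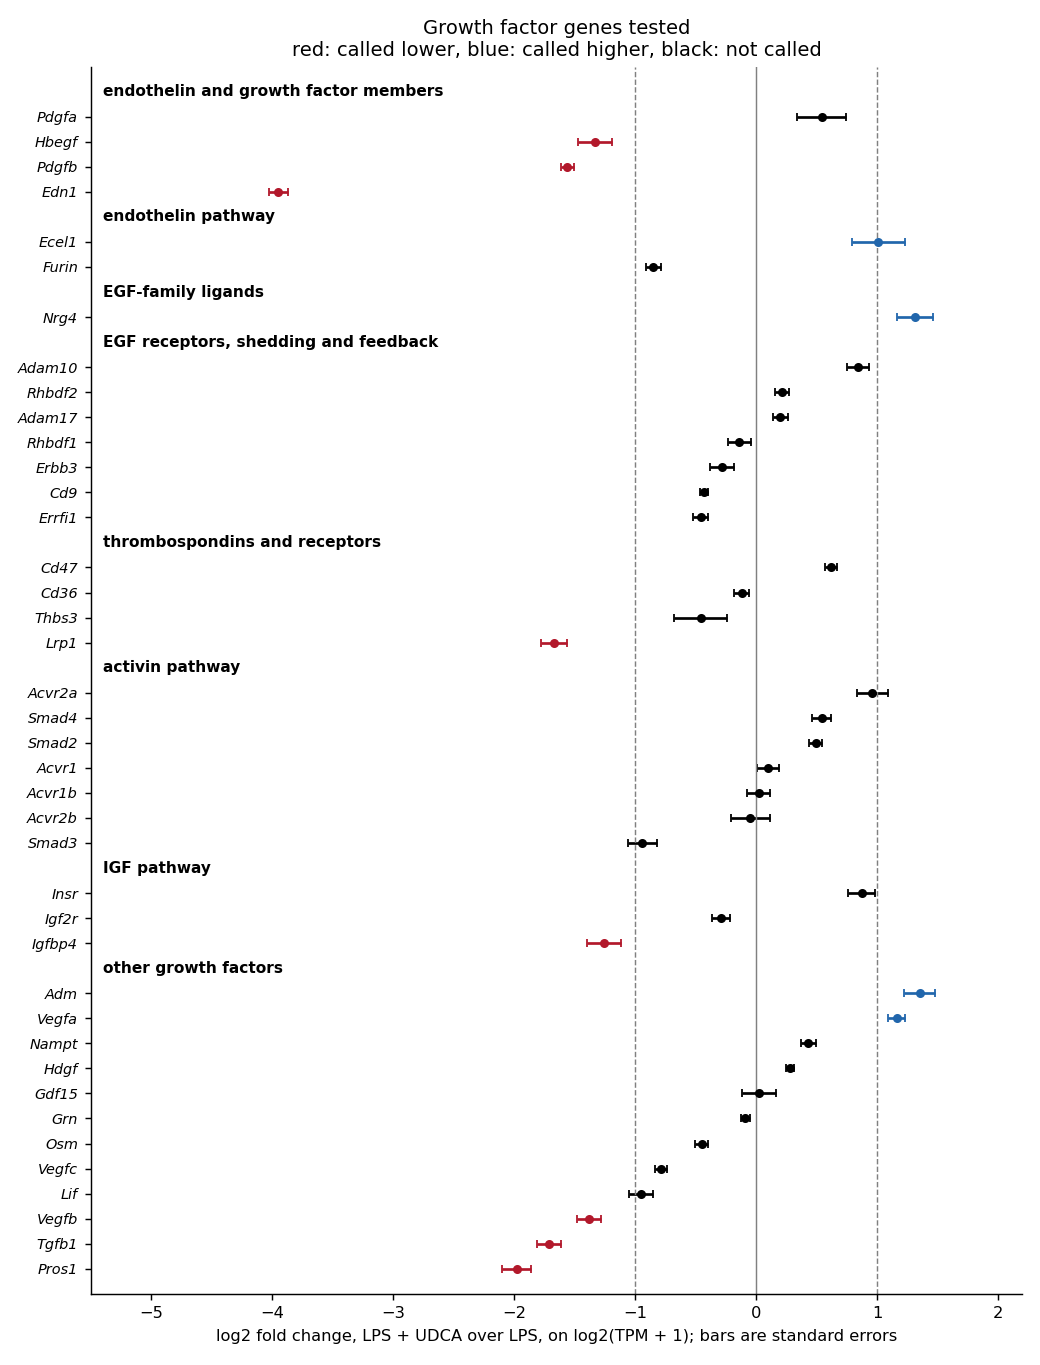
Log2 fold change, LPS + UDCA over LPS (horizontal axis, on log2(TPM + 1)), of the 4 tested genes of the 10 and of the 36 tested related genes, with standard errors as bars and dashed lines at a fold change of 2. Edn1 lies at -3.95, and the related genes lie between -1.98 for Pros1 and 1.35 for Adm.

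Growth factors beyond these pathways moved both ways. Of 20 such genes 12 were tested, and 2 rose and 3 fell past both thresholds, as did 8.71% and 8.44% of all genes tested. The list was made with earlier results of these data known, so nothing is read from this count. Tgfb1, the gene of the main TGF-β of macrophages, had 206.78, 194.62, 185.9 and 193.52 TPM in the LPS libraries and 65.54, 68.79, 50 and 53.3 TPM in the LPS + UDCA libraries. It was more abundant than Pdgfb in every library and fell by 1.71 on the log2 scale (SE 0.098, limma adjusted p = 4.7e-07). Pros1, which encodes protein S, a ligand of the TAM receptors, fell from 7.21 ± 0.243 to 1.10 ± 0.310 TPM (log2 fold change -1.98, SE 0.12, limma adjusted p = 6.1e-07). Adm, which encodes the vasodilator adrenomedullin, rose from 5.79 ± 0.485 to 16.6 ± 3.45 TPM (log2 fold change 1.35, SE 0.13, limma adjusted p = 1.4e-05).

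The 3 tested VEGF genes did not move together. Vegfb, which encodes a ligand of the receptor FLT1, fell from 35.0 ± 4.16 to 12.9 ± 1.44 TPM (log2 fold change -1.38, limma adjusted p = 1.9e-06). Vegfa, the main angiogenic factor, rose from 29.1 ± 2.07 to 66.3 ± 4.88 TPM (log2 fold change 1.16, limma adjusted p = 5.3e-07). Vegfc, the lymphatic factor, had 25.3 ± 0.602 and 14.2 ± 0.606 TPM (log2 fold change -0.79, limma adjusted p = 8.2e-07), under the fold change minimum. Vegfa and Vegfc fell outside the rule for named genes and were added after their values were seen. Their adjusted p values are given as a description. In each of the 9 related genes called the groups did not overlap, as in 66.8% of all genes tested, and nothing is read from this, because the thresholds of the same comparison had chosen them.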

How the data were processed

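RNA was sequenced from 8 libraries of J774A.1 cells, 4 per group, grouped by the sample labels. The authors deposited TPM per gene, 1 column per library, kept to 2 decimals. The unit was inferred from column sums just under 1000000. The submitters' processing notes name Bowtie 0.12.2 and the builds mm10 and GRCm38. The counting program and the use of strand are not given in the sources used here. TPM was analysed as log2(TPM + 1) for genes averaging at least 1 TPM with limma 3.58.1 (lmFit, eBayes with a trend) in R 4.3.3, in place of a count test, with Benjamini-Hochberg adjustment over 11796 genes. The 10 genes, the related lists and the tests were chosen with earlier results of these data known. The adjusted p values of the named related genes are therefore given as a description. All 10 genes, fixed receptors and processing genes, and in each list up to 4 genes past both thresholds with the largest changes were named. Positions, overlaps and 3′ UTRs are from GENCODE M21 on GRCm38. Words of 31 bases were compared with all its transcripts on both strands. Python 3.11.15 was used for the tables. Alternatives covered pseudocount, filter, scaling, replicate block, thresholds and leaving out each library. The replicate numbers shared by the groups do not say that libraries were paired.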

Additional observations from a re-analysis of the deposited data

Results flagged for a closer look

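In 119 groups of 4 libraries with any spread, for 70 genes named or plotted, Dixon's ratio was computed, which sets the distance of the extreme library from the next against the whole spread. In 16 groups it was above the 95% critical value, where chance alone gives about 1 in 20 groups, or 6.0. In 10 of them the extreme library lay under 1 TPM. There the high library was LPS replicate 1 for Ereg (0.03 TPM), LPS replicate 3 for Thbs1 (0.01 TPM) and Inhba (0.04 TPM), and LPS replicate 4 for Igf1 (0.33 TPM) and Pdgfrb (0.07 TPM, ratio 0.833). It was LPS replicate 2 for Igf1r (0.03 TPM). With UDCA it was replicate 2 for Thbs1 (0.16 TPM, ratio 0.938) and Egfr (0.01 TPM), replicate 1 for Ednra (0.02 TPM) and replicate 4 for Nrp1 (0.02 TPM). For Ereg, Inhba, Igf1, Igf1r, Ednra, Egfr, Nrp1 and, with LPS, Thbs1, the other libraries of the group were listed at 0, which fixes the ratio at 1.0. The count of 16 is therefore not read as an excess over 6.0. In the other 6 groups the level was higher and the library stood apart from close neighbours. LPS replicate 2 was the low one for Smad2 (20.97 TPM, ratio 0.904) and Smad3 (5.34 TPM, ratio 0.9), and LPS replicate 1 for Lyz2 (1848.05 TPM, ratio 0.923). For Ccl2, LPS replicate 4 was high (1270.01 TPM, ratio 0.881) and LPS + UDCA replicate 1 low (92.51 TPM, ratio 0.855), and for Fcgr1, LPS + UDCA replicate 2 was high (120.85 TPM, ratio 0.838). For Edn1, Pdgfb, Hbegf and Pdgfa no library stood apart by this measure.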

How the results depend on the processing

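Without the fold change minimum, 14 related genes were higher and 14 lower, and over all genes tested 4741 were higher and 3807 lower. The 14 higher include Ecel1, Nrg4 and Acvr2a, which entered the fit only through their LPS + UDCA libraries. With each library left out in turn, the related genes called ran from 3 to 4 higher and from 5 to 7 lower, and all genes from 959 to 1122 and from 972 to 1033. Edn1, Pdgfb and Hbegf stayed lower past both thresholds in every fit, with log2 fold changes of -5.56 to -3.93, -1.66 to -1.52 and -2.41 to -1.24. Nothing is read from these calls, because the same comparison chose the genes and all fits use the same libraries. Edn1 and Hbegf also reached the minimum only through their LPS libraries. Pdgfa ranged from 0.4 to 0.71. The 2 further related genes called lower under both scalings were Lif and Smad3, chosen after their values were seen. With the replicate number as a replicate block, 1034 genes were higher and 1000 lower, 2020 of them called in both fits, and no call among the named genes changed. Deviations of same-numbered libraries correlated by -0.035 to 0.15 (4 pairs, mean 0.088) and of others by -0.14 to 0.16 (12 pairs, mean -0.029). So few pairs cannot settle whether libraries were paired, and the main fit did not take the numbers as pairs. Median-of-ratios scaling moved the median of all genes by -0.098. Because TPM keeps no depth, no limit of detection can be given for genes listed at 0.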

Other observations

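Signal transducers of these pathways also differed between the groups, by less than the fold change minimum on log2(TPM + 1). Of the SMAD genes, which carry activin and TGF-β signals, Smad3 averaged 5.48 ± 0.0971 TPM (SD, n = 4) under LPS and 2.41 ± 0.538 TPM when UDCA was added (log2 fold change -0.94, limma adjusted p = 7.9e-05). Smad2 and Smad4 differed in the other direction, with log2 fold changes of 0.49 and 0.54 (limma adjusted p = 4.6e-05 and 1.7e-04). The insulin receptor gene Insr averaged 2.62 ± 0.522 and 5.59 ± 0.357 TPM (log2 fold change 0.87, limma adjusted p = 9.5e-05), and Igf2r, the receptor that clears IGF-2, 11.2 ± 0.923 and 8.99 ± 0.632 TPM (log2 fold change -0.29, limma adjusted p = 0.0079). Cd9, a tetraspanin that associates with HB-EGF, averaged 444 ± 17.4 and 329 ± 7.32 TPM. Errfi1, a feedback inhibitor of EGF receptors, averaged 18.8 ± 1.03 and 13.4 ± 0.785 TPM. Among cytokine-like growth factors, Lif (log2 fold change -0.95) and Osm (-0.45) were lower in every LPS + UDCA library than in any LPS library. So were 29.9% of all genes tested, and 72.5% of all genes tested had an FDR under 0.05. For Gdf15, a stress-induced factor, the log2 fold change was 0.02 (SE 0.14, limma adjusted p = 0.92). With a pseudocount of 0.1 TPM, Smad3 and Lif passed both thresholds as lower and Insr as higher. Smad3 and Lif also passed under median-of-ratios scaling, under quantile normalization and without LPS + UDCA replicate 2. All genes of this paragraph were chosen after their values were seen, so their adjusted p values are given as a description.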
